A study of Mus musculus with 8 samples.

Results

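The genes described here are 9 receptors for neuromodulators: the serotonin receptor genes Htr1a, Htr1b, Htr2a and Htr2c, the neurotensin receptor genes Ntsr1 and Ntsr2, the relaxin receptor gene Rxfp1, and the neuropeptide Y receptor genes Npy1r and Npy2r. They were taken by gene symbol from the 3 expression tables of an RNA-seq study of mouse hippocampal neurons in culture. Of the 9 genes, 8 were found in each table, among 15382 genes that all 3 tables list. Htr1b was listed in none of them and is not analysed further. The genes were chosen with their values in view, so their levels and ratios are given as a description and no test is made on them. A level below 1 FPKM (a fragment count scaled to transcript length and to the number of mapped fragments) is marked as low throughout.

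The study holds 8 samples, 2 in each of 4 groups, and all were collected at 14 days in vitro. The cytoplasmic rescue (labelled siRbfox1&3_Flag-Rbfox1_C) received siRNA against Rbfox1 and Rbfox3 together with an AAV2/9 vector for the Flag-tagged cytoplasmic splice isoform of Rbfox1. The nuclear rescue (siRbfox1&3_Flag-Rbfox1_N) received the same siRNA and the Flag-tagged nuclear isoform. Both rescue constructs carry the mark siMt in the labels. The knockdown group (siRbfox1&3_EGFP) received the same siRNA and a vector for EGFP, a green fluorescent protein. The control group (siNT_EGFP) received that EGFP vector and an siRNA with no target. All 4 groups therefore carried AAV2/9, given at 9 days in vitro, and 4 days of Accell siRNA, a modified siRNA that cells take up unaided. The vectors use the SynI (synapsin) promoter, which is active mainly in neurons. The knockdown is set against control, and each rescue against the knockdown, which asks what loss of the 2 proteins alters and what either isoform then alters in its place.

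The deposited tables give 1 FPKM value for each group and gene, the authors' value for the 2 libraries together, so no spread between samples can be given. As a measure of precision, the size of the log2 fold change was divided by the size of the authors' test statistic, and the result is called the implied error. It carries over the Cufflinks model of variation, since no value per culture is held in the tables. A gene is called where the q-value in the authors' deposited table is below 0.05. In the 3 comparisons the median implied error of genes with at least 1 FPKM was 0.147 (knockdown over control), 0.156 (cytoplasmic rescue over knockdown) and 0.158 (nuclear rescue over knockdown) on the log2 scale. Genes between 1 and 2 FPKM, where several of the receptors lie, had a larger median implied error of 0.210, 0.203 and 0.209. Rbfox1 measured 16.1 FPKM in the cytoplasmic rescue, 38.2 in the nuclear rescue, 1.94 in the knockdown and 25.7 in control, so the rescue groups held unequal amounts of Rbfox1 RNA. Rbfox3 measured 1.59, 1.53, 1.59 and 12.4 FPKM in the same order of groups. The related Rbfox2, which the siRNA did not target, measured 33.2 FPKM in the cytoplasmic rescue, 17.7 in the nuclear rescue, 42.1 in the knockdown and 35.4 in control. It fell by 1.25 on the log2 scale in the nuclear rescue over knockdown (q = 1.72e-09 in the authors' deposited table) and was not called in the cytoplasmic rescue, and its part in the receptor values was not tested.

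Neuromodulator receptors are membrane proteins that pass a slow signal to heterotrimeric G proteins, and so change the excitability of a neuron rather than carry fast transmission. Htr1a and both neuropeptide Y receptors couple to Gi/o proteins, which lower cyclic AMP and open the potassium channels known as GIRK channels. Htr2a, Htr2c and Ntsr1 couple to Gq/11 proteins and phospholipase C beta, while the relaxin receptor Rxfp1 raises cyclic AMP. Ntsr2 is placed in the Gq/11 group here with Ntsr1, although its coupling is less certain. In the hippocampus, serotonin acting on Htr1a and neuropeptide Y acting on its receptors are known to dampen neuronal activity. Rbfox proteins recognise the RNA letters GCAUG, and most strongly UGCAUG, near regulated exons and, for the cytoplasmic isoform, also in 3′ untranslated regions.

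Because that recognition is by sequence, the annotated 3′ untranslated regions of the receptors (GENCODE M21 transcripts, build GRCm38, 1 transcript a gene) were searched for TGCATG and for GCATG, on the transcript strand and in DNA letters. Every TGCATG also holds a GCATG. The windows below are shown for Ntsr1 and Rxfp1, which had called changes, and for Htr2c and Npy2r, which were not called. Htr1a also had a called change but holds no hexamer to show. Windows of Htr2a, which was not called, and of Htr1b, which has no expression value, are not printed. Capitals mark the hexamer, and each window is 30 bases of the transcript.
Ntsr1, 851 bases after the stop codon: ttgctggggacaTGCATGgttctgcgtctc
Ntsr1, 1587 bases after it: ctaagaaatgtcTGCATGggagcccctcac
Rxfp1, 244 bases after it: atttatgcacacTGCATGgaagtaaagtgc
Npy2r, 76 bases after it: ttttctggccagTGCATGcagacctcccat
Npy2r, 834 bases after it: tgttaccattccTGCATGagagcaaacaaa
Htr2c, 961 bases after it: caaagtgaaattTGCATGttgagccttatt
Htr2c, 1844 bases after it: ggtcagttgaacTGCATGttaaaacaatta
Htr2c, 1962 bases after it: cagatggtgctgTGCATGtaacaccatgta
Htr2c, 1983 bases after it: caccatgtatgtTGCATGagtccactgatc

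The receptors differ widely in these letters. Htr2a and Htr2c each hold 4 hexamers and 7 pentamers, and the last pair in Htr2c starts only 21 bases apart. Of genes with a 3′ untranslated region within 10% of the same length, 2.92% (Htr2a) and 2.94% (Htr2c) hold at least as many hexamers. Ntsr1 and Npy2r hold 2 hexamers each, a number reached by 18.4% and 16.6% of genes of like length. Rxfp1 holds 1 hexamer and 5 further pentamers in 3105 bases, and 66.3% of genes of like length have a hexamer. Htr1a holds neither the hexamer nor the pentamer in 2603 bases, whereas 91.8% of genes of like length hold the pentamer. Npy1r has 2 pentamers and no hexamer. Ntsr2 has neither, in a region of only 257 bases, where 19.6% of genes of like length hold the pentamer. Htr1b, which has no expression value here, has 1 hexamer. Over 12898 genes of the tables with such a region, 33.9% hold TGCATG and 57.2% hold GCATG. These letters are a description of the annotated sequence: binding was not measured in these samples, and the search covered no intron. In RefSeq promoter windows of 300 bases (GRCm38.p6), searched on both strands, GCATG was found in 1 of the 8 receptors with a window, Htr1b, against 33.1% of 32851 windows. Rxfp1 had no window, so its promoter was not searched.

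**Figure D1:**
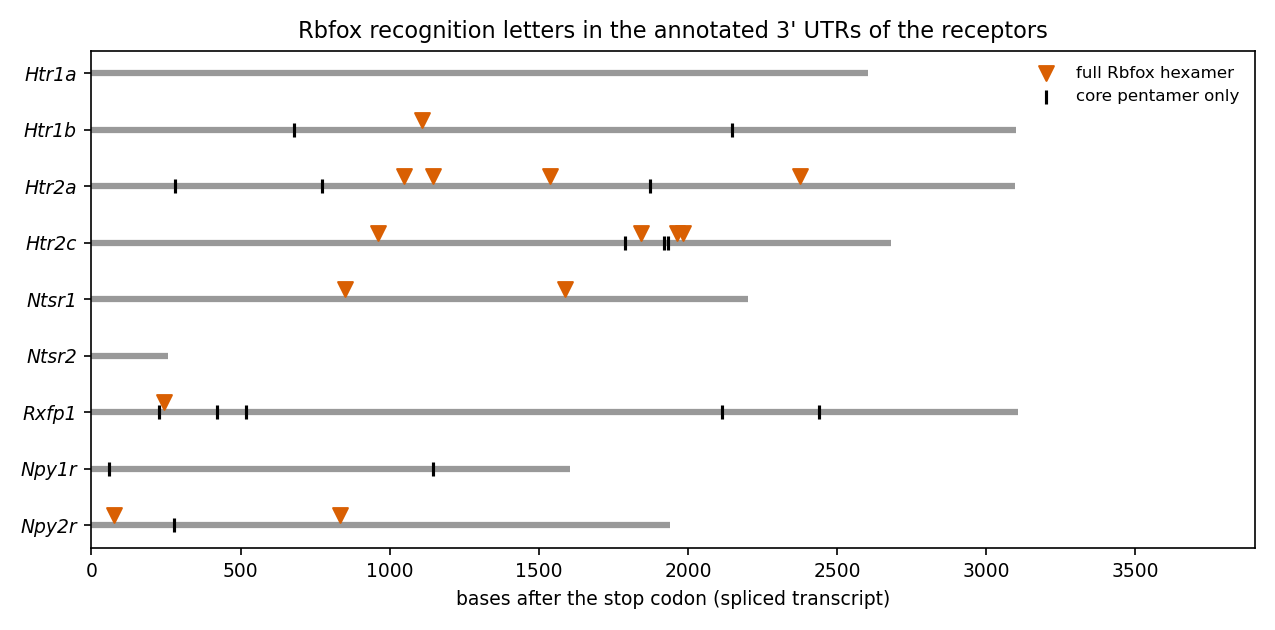
Positions of Rbfox recognition letters in the annotated 3′ untranslated region of each receptor gene, in bases after the stop codon (x axis). Grey bars show the length of the region, triangles the full hexamer and ticks the core pentamer outside a hexamer. Htr2a and Htr2c carry 4 hexamers each, and Htr1a and Ntsr2 carry neither element.

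The 8 receptors were low to moderate in level, and FPKM, being scaled to transcript length, allows the genes to be ordered. In control cultures Htr2c was highest at 5.93 FPKM, followed by Htr2a (5.17), Ntsr2 (4.73), Npy1r (3.95), Rxfp1 (2.61), Htr1a (1.34), Npy2r (0.879) and Ntsr1 (0.572). Htr2c thus stood above 47.6% of all genes and Ntsr1 above 14.1%. Htr2a, Htr2c, Ntsr2 and Npy1r kept above 1 FPKM in each of the 4 groups. Npy2r stayed below 1 FPKM in all 4, and Htr1a, Ntsr1 and Rxfp1 were below it in some groups. The values nearest to that limit were 1.01 FPKM (Rxfp1, cytoplasmic rescue) and 1.07 (Ntsr1, cytoplasmic rescue) just above it, and 0.879 (Npy2r, control) and 0.847 (Rxfp1, knockdown) just below it. Htr2c was the highest in every group. In the knockdown Ntsr1 held the fifth place, against the last in control, and Rxfp1 the seventh, against the fifth in control. Between neighbours in these orders no test is available.

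**Figure D2:**
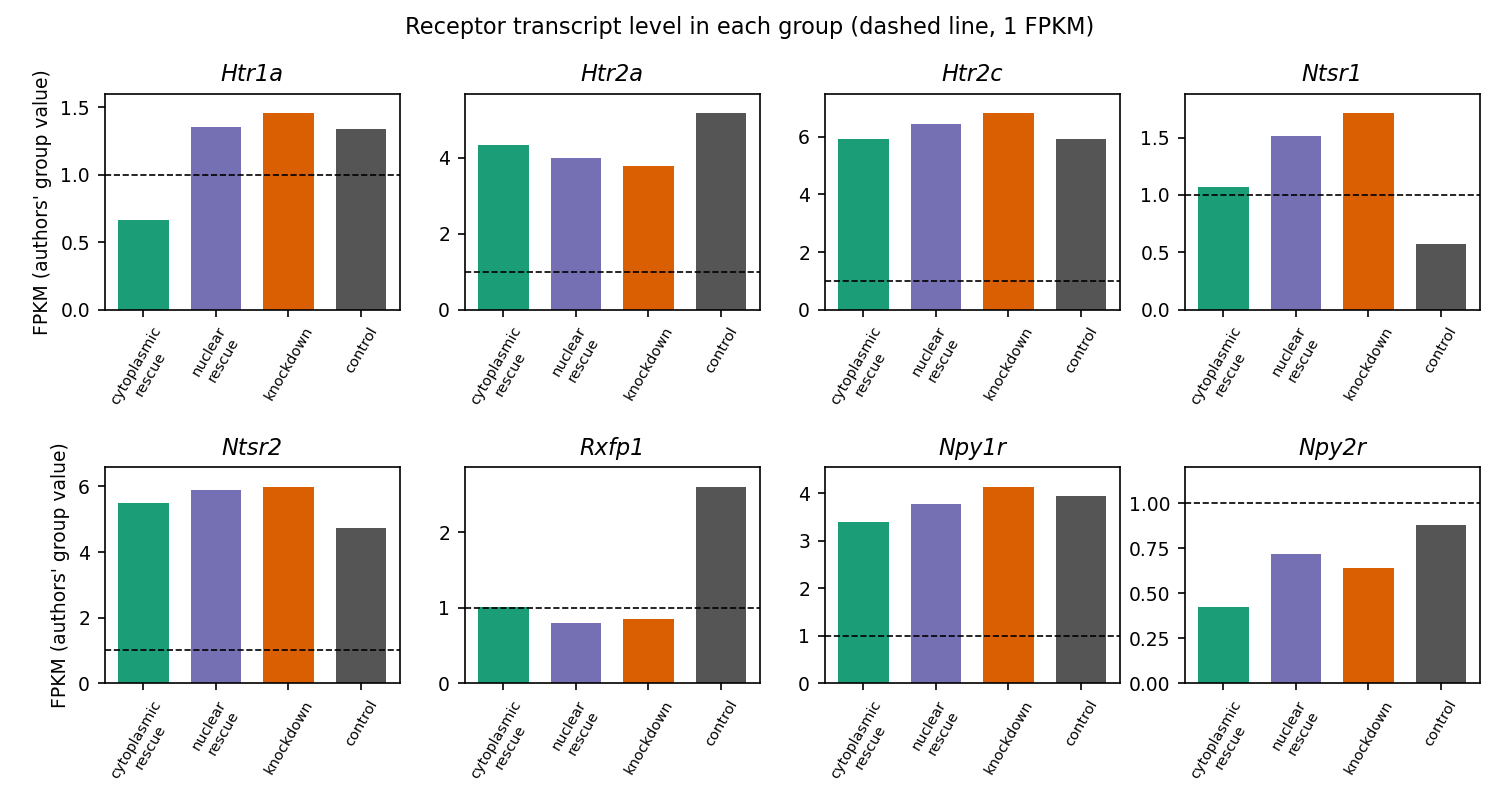
FPKM of each receptor (y axis, starting at 0, the authors' value for the group of 2 libraries) in the cytoplasmic rescue, nuclear rescue, knockdown and control groups. The dashed line is 1 FPKM. Htr1a is low in the cytoplasmic rescue alone at 0.665 FPKM, Ntsr1 is lowest in control at 0.572, and Rxfp1 is highest in control at 2.61.

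Across the comparisons, 2 of the 8 receptors were called in the knockdown (Ntsr1 higher, Rxfp1 lower), 2 in the cytoplasmic rescue (Htr1a and Ntsr1, both lower) and 0 in the nuclear rescue. Over all genes the share called was 2.35% in the knockdown table (0.776% higher and 1.58% lower), 0.506% in the cytoplasmic table (0.333% higher and 0.173% lower) and 0.11% in the nuclear table (0.071% higher and 0.0387% lower). Since those calls were among the reasons for choosing the genes, nothing is read from the difference. With q below 0.01 the receptors called numbered 2, 1 and 0 in the knockdown, cytoplasmic and nuclear tables, where the share of all genes was 1.53%, 0.263% and 0.0839%. The receptor counts were also 2, 1 and 0 with q recomputed within each table (3.08%, 0.314% and 0.0839% of all genes), and after genes below 1 FPKM were left out as well (3.34%, 0.439% and 0.088%). By unadjusted p below 0.05 in the authors' Cufflinks test, 4 receptors passed in the knockdown, 3 in the cytoplasmic rescue and 0 in the nuclear rescue, beside 10.9%, 5.33% and 1.05% of all genes. Lower values than in the knockdown were seen for 6 of 8 receptors in the cytoplasmic rescue and for 6 of 8 in the nuclear rescue, beside 67.2% and 56.1% of all genes. The median log2 ratio of the 8 receptors was 0.09 in the knockdown over control, -0.24 in the cytoplasmic rescue over knockdown and -0.08 in the nuclear rescue over knockdown, against 0.02, -0.06 and -0.02 for all genes. Both rescue tables use the same knockdown values, and those values also stand in the knockdown table, so the 3 sets of ratios are not independent.

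**Figure D3:**
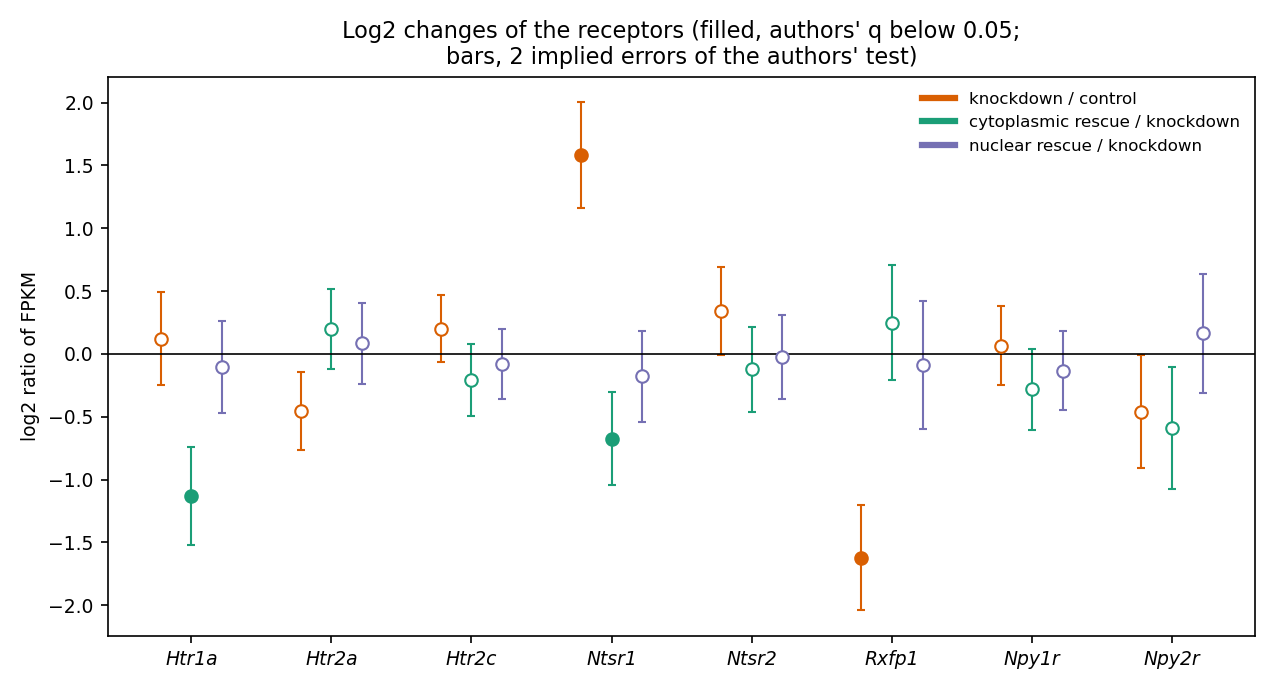
Log2 ratio of FPKM (y axis) for each receptor in the 3 comparisons, with bars of 2 implied errors of the authors' test. Filled points have a q below 0.05 in the authors' deposited table. The 4 filled points are Ntsr1 and Rxfp1 in the knockdown over control, and Htr1a and Ntsr1 in the cytoplasmic rescue over knockdown.

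Htr1a (chromosome 13, 106233773 to 106238213, mm9) encodes the 5-HT1A receptor, the inhibitory serotonin receptor for which the hippocampus is best known. It measured 0.665 FPKM in the cytoplasmic rescue, 1.35 in the nuclear rescue, 1.45 in the knockdown and 1.34 in control. The cytoplasmic rescue was thus the one group below 1 FPKM, and the other 3 lay close together. The log2 ratio of the cytoplasmic rescue over knockdown was -1.13 with an implied error of 0.195, and q was 4.48e-06 in the authors' deposited table. Among 12443 genes with at least 1 FPKM in that comparison, it was the 12th lowest ratio. The nuclear rescue over knockdown gave -0.10 with an implied error of 0.183, and the knockdown over control 0.12 with an implied error of 0.184. A span of 2 implied errors covered -1.52 to -0.74 for the cytoplasmic and -0.47 to 0.26 for the nuclear rescue. Both spans share the same knockdown value and rest on the Cufflinks model. The ratio of the cytoplasmic over the nuclear rescue was 0.491, and the cytoplasmic rescue stood at 49.7% of control. No test was made of the difference between the rescues.

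Ntsr1 (chromosome 2, 180234681 to 180279684, mm9) encodes the high-affinity neurotensin receptor. It measured 1.07 FPKM in the cytoplasmic rescue, 1.51 in the nuclear rescue, 1.71 in the knockdown and 0.572 in control. All 3 groups with siRNA against Rbfox1 and Rbfox3 lay above 1 FPKM and control lay below it. The knockdown over control log2 ratio was 1.58 with an implied error of 0.210, a ratio of 2.99, and q was 1.08e-10 in the authors' deposited table. This was the 11th highest ratio of 12521 genes. The cytoplasmic rescue over knockdown ratio was -0.67 with an implied error of 0.186, and q was 0.0304 in the authors' deposited table. The nuclear rescue over knockdown ratio was -0.18 with an implied error of 0.181, within its error. The cytoplasmic rescue kept 188% of the control level and the nuclear rescue 265%, beside 299% in the knockdown, so the level with either isoform lay between knockdown and control. Its call in the cytoplasmic rescue had the highest q of the 4 calls and was lost at q below 0.01, with q recomputed from the deposited p-values of that table alone, and with genes below 1 FPKM left out as well.

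Ntsr2 (chromosome 12, 16660276 to 16667042, mm9), the low-affinity neurotensin receptor, is known from adult rodent brain as a gene of astrocytes. It measured 5.50 FPKM in the cytoplasmic rescue, 5.89 in the nuclear rescue, 5.99 in the knockdown and 4.73 in control. The order of groups was that of Ntsr1, but the highest group exceeded the lowest by 1.27 times, against 2.99 times for Ntsr1. The knockdown over control ratio was 0.34 with an implied error of 0.174 and was not called (q = 0.789 in the authors' deposited table). Summed FPKM of 9 astrocyte markers was 1797 in the cytoplasmic rescue, 1841 in the nuclear rescue, 2000 in the knockdown and 1948 in control. In any comparison 0 of the 9 were called, beside 2.35% (knockdown), 0.506% (cytoplasmic) and 0.11% (nuclear) of all genes. In the cytoplasmic rescue over knockdown 9 were lower and 0 higher, beside 67.2% of all genes lower. In the nuclear rescue over knockdown 8 were lower and 1 higher, beside 56.1%. In the knockdown over control 3 were lower and 6 higher. The lowest of these markers reached 10.7 FPKM in its highest group. Their part in the Ntsr2 values was not tested.

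Rxfp1 (chromosome 3, 79448638 to 79541716, mm9) encodes the receptor for relaxin. It measured 1.01 FPKM in the cytoplasmic rescue, 0.797 in the nuclear rescue, 0.847 in the knockdown and 2.61 in control. Control stood apart, at more than the level of any group with the knockdown siRNA, and neither rescue differed from the knockdown by more than 2 implied errors. The knockdown over control log2 ratio was -1.62 with an implied error of 0.209, and q was 2.4e-11 in the authors' deposited table. It was the 14th lowest ratio of 12521 genes. The cytoplasmic rescue over knockdown ratio was 0.25 with an implied error of 0.229, and the nuclear ratio -0.09 with an implied error of 0.254. With 38.6% of control in the cytoplasmic and 30.6% in the nuclear rescue, beside 32.5% in the knockdown, neither rescue gave a change that the authors' test detected. The upper end of 2 implied errors for the cytoplasmic rescue over knockdown was 0.71 on the log2 scale.

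Htr2a (chromosome 14, 75040647 to 75106666, mm9) encodes an excitatory serotonin receptor, the main target of classical hallucinogens. It measured 4.33 FPKM in the cytoplasmic rescue, 4.00 in the nuclear rescue, 3.77 in the knockdown and 5.17 in control. Control was highest and knockdown lowest, with both rescues between them. The knockdown over control ratio was -0.45 with an implied error of 0.154, not called over all genes (q = 0.172 in the authors' deposited table). The rescue ratios were 0.20 (cytoplasmic) and 0.08 (nuclear), with implied errors of 0.160 for each.

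Htr2c (chromosome X, 143397056 to 143631820, mm9) encodes a serotonin receptor whose transcript is known for RNA editing. It measured 5.90 FPKM in the cytoplasmic rescue, 6.44 in the nuclear rescue, 6.81 in the knockdown and 5.93 in control. This is the narrowest range of the 8 receptors, the highest group exceeding the lowest by 1.15 times. Its ratios were 0.20 in the knockdown over control, -0.21 in the cytoplasmic and -0.08 in the nuclear rescue over knockdown, with implied errors between 0.133 and 0.143, and it was not called in any comparison. FPKM of the whole gene says nothing of editing or of the choice among its isoforms.

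Npy1r (chromosome 8, 69221321 to 69230697, mm9) and Npy2r (chromosome 3, 82342305 to 82352007, mm9) encode receptors for neuropeptide Y, the first mostly on cell bodies and dendrites and the second mostly on axon terminals. Npy1r measured 3.40 FPKM in the cytoplasmic rescue, 3.77 in the nuclear rescue, 4.14 in the knockdown and 3.95 in control. Its largest ratio was -0.28 in the cytoplasmic rescue over knockdown with an implied error of 0.161, not called (q = 0.947 in the authors' deposited table). Npy2r measured 0.425 FPKM in the cytoplasmic rescue, 0.717 in the nuclear rescue, 0.640 in the knockdown and 0.879 in control. The cytoplasmic rescue was lowest, at 48.4% of control, and the ratio over knockdown was -0.59 with an implied error of 0.242, not called (q = 0.439 in the authors' deposited table). The knockdown over control ratio of Npy2r was -0.46 with an implied error of 0.226, not called (q = 0.738 in the authors' deposited table).

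**Figure D4:**
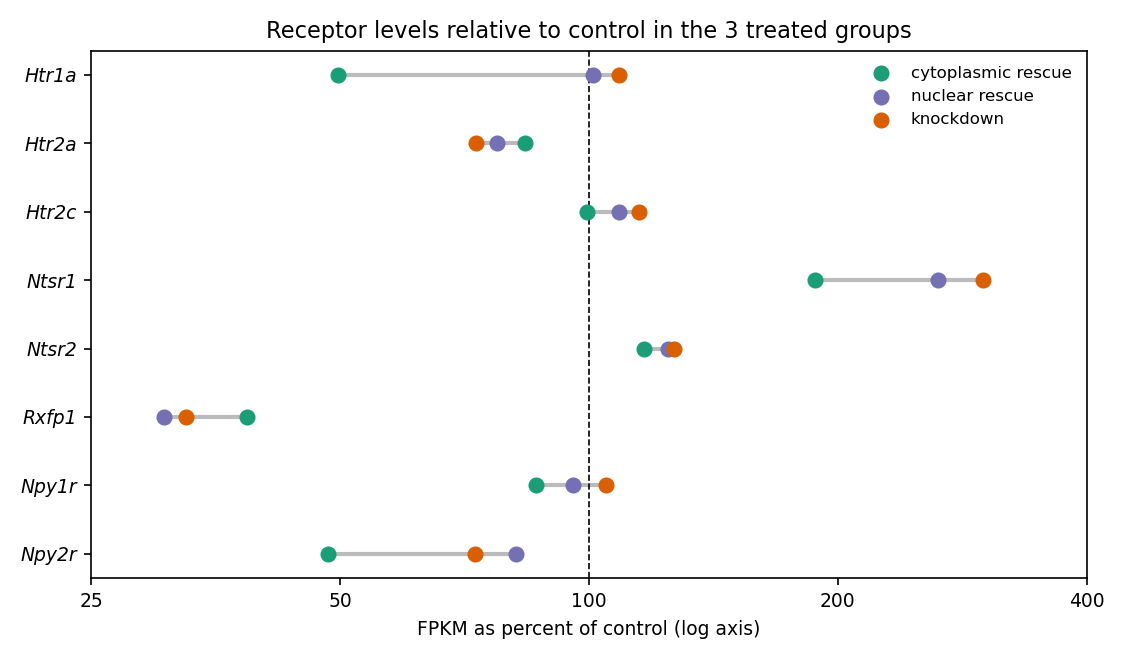
FPKM of each receptor as a percent of control (x axis, log scale) in the cytoplasmic rescue, nuclear rescue and knockdown. The dashed line is control. Ntsr1 lies at 188%, 265% and 299%, Rxfp1 at 38.6%, 30.6% and 32.5%, and Htr1a at 49.7%, 101% and 109%.

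Grouped by G protein, the 3 Gi/o-coupled receptors (Htr1a, Npy1r and Npy2r) summed to 4.49 FPKM in the cytoplasmic rescue, 5.84 in the nuclear rescue, 6.23 in the knockdown and 6.16 in control. The cytoplasmic rescue held 72.8% of control, and each of the 3 genes had its lowest value there. So did Htr2c of the Gq/11 group (5.90 FPKM). Of all genes, 67.2% were lower in the cytoplasmic rescue than in the knockdown. The 4 receptors placed in the Gq/11 group (Htr2a, Htr2c, Ntsr1 and Ntsr2) summed to 16.8 FPKM in the cytoplasmic rescue, 17.8 in the nuclear rescue, 18.3 in the knockdown and 16.4 in control. The knockdown sum stood at 111% of control although Ntsr1 and Htr2a had opposite ratios within it. These sums count RNA and not receptors at the membrane, and no error can be attached to them. In whole cultures, fewer cells that express a gene and less RNA in each cell cannot be told apart.

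The ligand genes held the largest ratio of the lists around the receptors, that of Npy. Of 15 genes for peptide ligands and for the making, uptake and breakdown of serotonin, 11 were listed, and 1 rose and 1 fell in the knockdown, against 2.35% of all genes called. As the list was chosen with earlier results of these data known, nothing is read from that count. The neuropeptide Y gene Npy measured 57.0 FPKM in the cytoplasmic rescue, 41.9 in the nuclear rescue, 38.6 in the knockdown and 155 in control. Its log2 ratio was -2.00 in the knockdown over control and 0.56 in the cytoplasmic rescue over knockdown, both called (q = 0 and 0.022 in the authors' deposited table), while its receptor gene Npy1r lay between 3.40 and 4.14 FPKM. The cytoplasmic call of Npy was lost at q below 0.01 and with q recomputed within the table. Ddc, the decarboxylase that makes serotonin and dopamine, rose to 2.78 FPKM in the knockdown, against 1.42 in control, a log2 ratio of 0.97 with an implied error of 0.210 (q = 8.74e-04 in the authors' deposited table). Nts, the neurotensin precursor gene, was at 0.204 FPKM in the cytoplasmic rescue, 0.142 in the nuclear rescue, 0.210 in the knockdown and 0.431 in control, low throughout and not called. Maoa and Maob, which break down monoamines, were not called, with 17.7 FPKM of Maoa in the knockdown and 16.5 in control. The median log2 ratio of the list was 0.10 in the knockdown over control, against 0.02 for all genes.

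Receptors of the same families outside the set gave no call by the authors' Cufflinks test. Of 18 such genes 11 were listed, of which 3 passed an unadjusted p below 0.05 in the knockdown, 0 in the cytoplasmic rescue and 0 in the nuclear rescue, beside 10.9%, 5.33% and 1.05% of all genes. Only 2.35% (knockdown), 0.506% (cytoplasmic) and 0.11% (nuclear) of all genes were called. Nothing is therefore read from the absence of calls among 11 genes. The highest was Sort1, a sorting receptor that also binds neurotensin, at 51.9 FPKM in the cytoplasmic rescue, 44.4 in the nuclear rescue, 43.6 in the knockdown and 48.9 in control. The serotonin receptor genes Htr7 and Htr3a and the relaxin-3 receptor gene Rxfp3 all lay between 4.10 and 5.25 FPKM in each group. The median log2 ratios of the list were -0.16, 0.04 and -0.06 in the knockdown, cytoplasmic and nuclear tables.

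Among 57 genes for receptors of other neuromodulators, 48 were listed in the knockdown table, where 2 rose and 4 fell. Those were 12.5% of the listed genes, against 2.35% of all genes. The list was chosen with earlier results of these data known, so nothing is read from the difference. Tacr3, the neurokinin B receptor gene, rose to 3.57 FPKM in the knockdown, against 1.84 in control, a log2 ratio of 0.95 with an implied error of 0.168 (q = 8.51e-06 in the authors' deposited table). Trhr, the receptor gene for thyrotropin-releasing hormone, rose to 5.12 FPKM, against 3.38 in control. The falls were in Nmbr, the neuromedin B receptor gene (4.90 FPKM in the knockdown, 8.65 in control), Mchr1, for melanin-concentrating hormone (1.45 and 2.40), Crhr1, for corticotropin-releasing hormone (4.59 and 6.91), and Sstr2, for somatostatin (21.4 and 31.1). Their log2 ratios were -0.82, -0.73, -0.59 and -0.54. Of the 48 genes, 14 lay above and 34 below 0, beside 44.7% of all genes below 0. Their median log2 ratio was -0.21 against 0.02 for all genes. Only 29 of the 48 reached 1 FPKM in the knockdown or control, and the rest were low. Neither rescue table had a call in this list, with 9 of 46 (cytoplasmic) and 0 of 47 (nuclear) at an unadjusted p below 0.05 in the authors' Cufflinks test, beside 5.33% and 1.05% of all genes. In the cytoplasmic rescue Trhr was at 3.74 FPKM, a log2 ratio over knockdown of -0.45 that was not called (q = 0.153 in the authors' deposited table).

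Of 53 genes for G proteins, their regulators and effectors, 52 were listed, and 1 rose and 3 fell in the knockdown, 7.69% against 2.35% of all genes. Nothing is read from that difference either, since this list too was chosen with earlier results known. The falls included Kcnj3 and Kcnj9, which encode GIRK channel subunits that Gi/o-coupled receptors open. Kcnj3 measured 29.5 FPKM in the cytoplasmic rescue, 28.4 in the nuclear rescue, 24.2 in the knockdown and 35.0 in control, and its knockdown over control log2 ratio was -0.53 with an implied error of 0.128 (q = 0.00591 in the authors' deposited table). Kcnj9 measured 9.76, 9.32, 9.97 and 14.3 FPKM in the same order, with a log2 ratio of -0.51 in the knockdown over control. The third neuronal GIRK gene, Kcnj6, was not called, at 5.84 FPKM in the knockdown and 6.04 in control. Rgs8, a regulator that speeds the shut-off of Gi/o signals, fell to 11.98 FPKM in the knockdown, against 18.96 in control (q = 1.07e-04 in the authors' deposited table). Gnal, the stimulatory alpha subunit known from olfactory and striatal neurons, rose to 22.1 FPKM, against 14.4 in control (q = 0.0226 in the authors' deposited table). The list median was 0.00 against 0.02 for all genes. In both rescues over knockdown, 0 of the 52 were called, with 4 (cytoplasmic) and 1 (nuclear) at an unadjusted p below 0.05 in the authors' Cufflinks test, beside 5.33% and 1.05% of all genes.

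**Figure D5:**
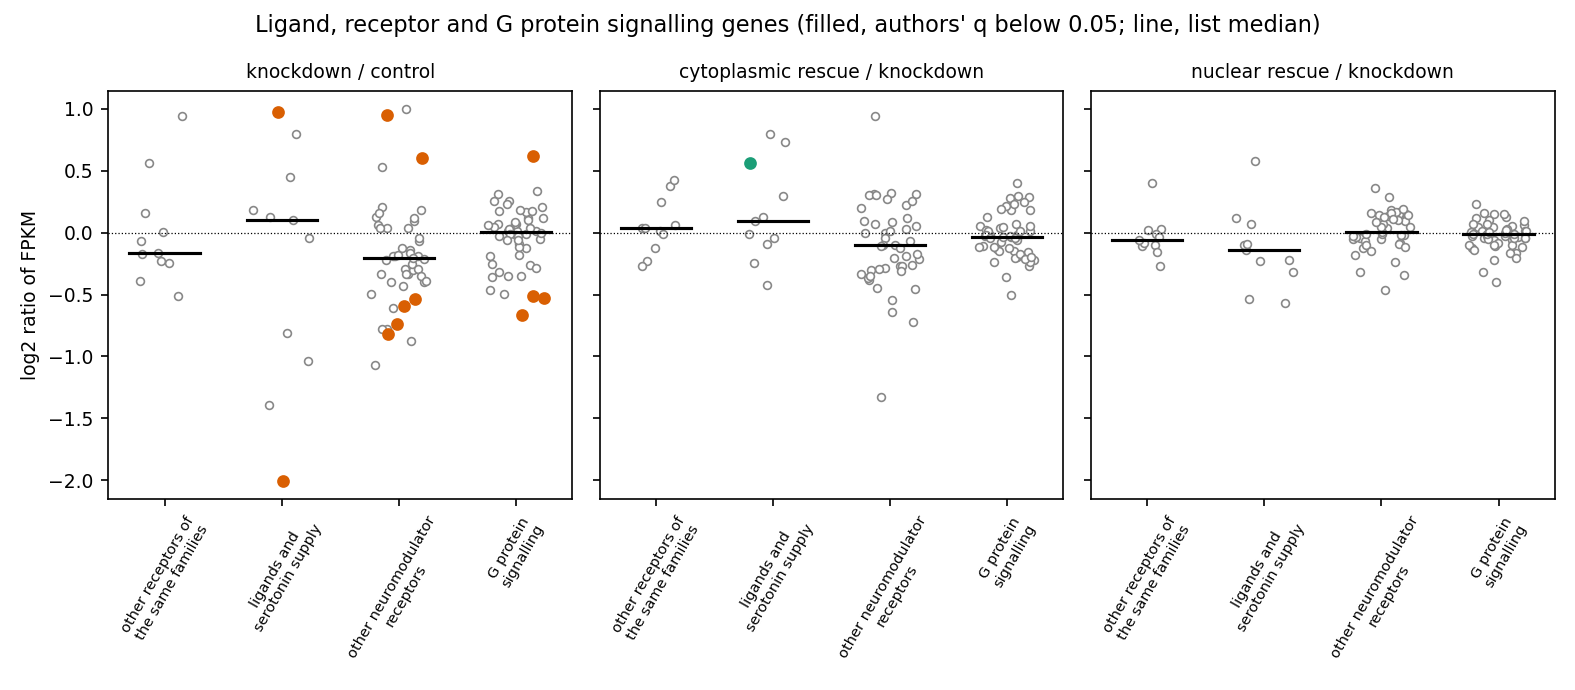
Log2 ratio of FPKM (y axis) of each gene in 4 lists around the receptors, in the 3 comparisons. Filled points have a q below 0.05 in the authors' deposited table, open points do not, and black lines are list medians. The 12 called genes of the knockdown panel include Npy at -2.00 and Ddc at 0.97, and Npy is the 1 call in the cytoplasmic panel.

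Markers of the cell types in the dish were called in the knockdown as well. Excitatory neuron markers summed to 293 FPKM in the cytoplasmic rescue, 309 in the nuclear rescue, 296 in the knockdown and 330 in control over 7 genes (1 fell in the knockdown, Neurod2), and inhibitory neuron markers to 442, 446, 454 and 481 over 12 genes. Of the 12 inhibitory markers 1 rose (Calb2) and 3 fell (Cck, Gad2 and Vip) in the knockdown, where 2.35% of all genes were called. By direction alone, 10 of the 12 were lower and 2 higher there, beside 44.7% of all genes lower. Within their sum the 2 highest genes changed in opposite directions. Cck measured 122 FPKM in the knockdown and 194 in control, and Calb2 171 and 90.1. Microglia markers summed to 8.68, 6.68, 6.73 and 11.6 FPKM over 8 genes, of which 3 fell (C1qa, C1qc and Csf1r) in the knockdown, against 1.58% of all genes called lower. Csf1r was low, at 0.313 FPKM in the knockdown and 0.653 in control, and its call was lost with a minimum of 1 FPKM. The calls of Neurod2, C1qa and C1qc were lost at q below 0.01. In either rescue over knockdown 0 of the excitatory, inhibitory and microglia markers were called by the authors' Cufflinks test. The share of all genes called there was only 0.506% (cytoplasmic) and 0.11% (nuclear). Marker lists were also chosen with earlier results known, so nothing is read from their counts beside these shares. None of these markers was at 0 in all groups, and the part of any of these cells in the receptor values was not tested.

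The genes most like each receptor were sought by the distance between their log2 ratios in the 3 comparisons (the square root of the summed squared differences), over 12532 genes with at least 1 FPKM in a group. This likeness rests on 4 group values. Few genes came near the receptors with called changes. Most genes have small ratios, so a gene with large ratios has few neighbours by this measure. The counts of neighbours therefore restate the size of the ratios. Implied errors of single ratios reached 0.254 (Rxfp1, nuclear rescue over knockdown), so a distance of 0.2 is within error. For Htr1a no gene lay within 0.2 and 4 lay within 0.5, the nearest being 1700024G13Rik (0.42), Dcakd (0.43) and the Wnt receptor gene Fzd7 (0.44). For Ntsr1 the nearest were Chodl (0.26), Cxadr (0.31) and the myelin gene Mag (0.33), with 4 genes within 0.5. For Rxfp1 they were Cryba2 (0.23), Acan (0.25) and Wif1 (0.34), with 17 genes within 0.5. Acan encodes aggrecan, a proteoglycan of the nets around some inhibitory neurons, and measured 2.19 FPKM in the cytoplasmic rescue, 1.94 in the nuclear rescue, 1.97 in the knockdown and 5.19 in control.

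The remaining receptors, with smaller ratios, had more genes near them. Within 0.2 of Htr2a lay 222 genes, the nearest being Gse1 (0.026), Adarb1 (0.030), an RNA-editing enzyme gene, and Slitrk4 (0.037). Within 0.2 of Htr2c lay 2985 genes, with Alms1, Hecw1 and Enc1 nearest, within 0.2 of Npy1r 2042, with Fat4, Rit2 and Tmem50a nearest, and within 0.2 of Ntsr2 1524, with Camk2n1, Mki67 and Tmem136 nearest. The nearest of these lay at 0.011 (Alms1), 0.0082 (Fat4) and 0.0070 (Camk2n1). Npy2r, below 1 FPKM in all groups and not called, was left out of this search.

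None of the 9 receptor genes had an exon in the 3 cassette exon tables, which list 214 exons for the knockdown against control, 150 for the cytoplasmic rescue and 318 for the nuclear rescue against knockdown. The genes of the 4 lists around the receptors had 0 exons there too. Every exon listed there differs in inclusion fraction by at least 0.1 between the groups, so an exon with a smaller difference would not appear. The listed exons lie in 202 (knockdown), 146 (cytoplasmic) and 292 (nuclear) genes, beside 15382 genes with expression values. Nothing is therefore read from the absence of the receptors. In the GENCODE annotation the exons of the 8 measured receptors overlap no exon of another gene on either strand, which matters because the libraries carry no strand information.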

How the data were processed

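Hippocampal neurons of 8 samples in 4 groups were sequenced as ribosome-depleted total RNA, paired-end reads of 50 nt without strand, per the labels' protocols. The submitters' processing notes name CASAVA, Cufflinks and the mouse build mm9, with no version. The authors deposited FPKM per group, with the 2 libraries already combined, and beside it a deposited log2 fold change, a test statistic (both treated here as a score), a p-value and a q-value. Splicing tables hold the authors' inclusion fraction per group, used here for the presence of genes only. Their other 72 value columns were not used. Nothing says that the samples of a group are separate cultures. Library totals were not used here, so depth is unknown and no counting interval is given.

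Since every gene had the same knockdown FPKM wherever it was listed, ratios between groups of different tables were formed from it. The deposited fold change matched the log2 of the FPKM ratio within 2.5e-04, and the p-value matched the normal tail of the statistic within 2.81e-06, which is why fold change over statistic serves as the implied error. Locus starts were counted from 0 (3611 spans fit RefSeq lengths that way and 320 the other way), and are printed from 1. The Benjamini-Hochberg step was tested on simulated data. The receptors and all gene lists were chosen with earlier results of these data known. Named genes outside the set were the called genes of each list (up to 8 a table), the 4 highest receptors and ligands, and the 3 nearest patterns. The result of the oligodendrocyte marker list is not reported here. Some further genes (Nts, Kcnj6, Trhr in the rescue) were named after their values were seen. Transcripts were chosen by APPRIS class, then longest 3′ untranslated region. Alternatives tried were pseudocounts of 0.1 and 1, subtraction of the median ratio, q below 0.01, q recomputed within a table, and a minimum of 1 FPKM. Software was Python 3.11.15, pandas 2.3.3, scipy 1.17.1 and matplotlib 3.10.9.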

Additional observations from a re-analysis of the deposited data

How the results depend on the processing

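No paired analysis was possible because the deposited tables hold 1 value per group, and for the same reason no replicate could be left out. The receptor calls in the knockdown (2) and nuclear tables (0) held at q below 0.01, with q recomputed within the table, and with a minimum of 1 FPKM. In the cytoplasmic table the receptor calls went to 1 in place of 2 under each of these settings, Ntsr1 being lost and Htr1a kept. Calls in the 4 lists around the receptors went to 7 in place of 12 in the knockdown at q below 0.01, with Mchr1, Crhr1, Sstr2, Gnal and Kcnj9 lost. The 1 call of the cytoplasmic table, Npy, went to 0 at q below 0.01 and with q recomputed. No ratio of a receptor changed sign after subtraction of the median ratio (0.03, -0.06 and -0.01 for the knockdown, cytoplasmic and nuclear tables). A pseudocount of 0.1 or 1 cannot change the sign of a ratio, only its size. With a pseudocount of 1, 6 of the 24 ratios of the deposited comparisons moved toward 0 by more than their implied error, among them Htr1a in the cytoplasmic rescue over knockdown (-0.56), and Ntsr1 (0.79) and Rxfp1 (-0.96) in the knockdown over control. Npy2r, Ntsr1, Htr1a and Rxfp1 were below 1 FPKM in at least 1 group, where the implied errors are larger, and depth per library is unknown.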
